A study of Mus musculus with 12 samples.

Results

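Bone marrow-derived macrophages (BMDMs) that received 1 μM cpTLR-i before LPS were compared with BMDMs that received LPS alone, across all expressed genes. Members were the 3 libraries of each group, 6 of the 12 in the series, and 12315 of the 23959 genes in the table, those that reached 0.5 FPKM in 3 or more libraries of the series. FPKM is a level of fragments corrected for transcript length and for the total of the library. cpTLR-i is a peptide inhibitor that carries the βC motif of the TIR domain of TIRAP, a receptor adaptor, joined to a cell-penetrating sequence. All groups were WT mouse BMDMs grown from bone marrow for 7 days in 20 ng/ml M-CSF, the growth factor that drives macrophage differentiation. Cells with 1 μM cpTLR-i were pretreated for 1 h and then activated with 200 ng/ml LPS for 2 h. LPS cells had the same 2 h activation without peptide. Another group had 10 μM cpTLR-i before the same LPS, and control cells, given neither and labelled 0 h, completed the series with 3 libraries each. No library was labelled as peptide without LPS or as the cell-penetrating sequence alone, so effects of the βC motif and of the carrier cannot be told apart. Whether replicate libraries came from different mice or cultures is not given in the sources used here. The p-values set each difference between the groups against the spread among replicate libraries of the series, and that spread may be only technical.

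LPS, a cell wall component of Gram-negative bacteria, is sensed by TLR4 with its partners MD-2 and CD14. At the cell surface TIRAP brings MyD88 to the receptor, which activates NF-κB and MAP kinases and induces cytokines within hours. From endosomes the adaptors TRAM and TRIF activate IRF3 and the transcription of IFN-β, which then acts through its own receptor and STAT factors to induce interferon-stimulated genes. Immediate early genes such as Fos and Egr family members are transcribed within minutes through MAP kinases and other signals and decay quickly.

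Libraries of the 6 were much alike. Pearson correlations of log2 values across genes, which are not independent replicates, were 0.9959 to 0.9965 among the 1 μM libraries, 0.996 to 0.9967 among the LPS libraries and 0.9934 to 0.9946 between the groups. FPKM summed to 411529 to 422014 in the 1 μM libraries and 403473 to 411399 in the LPS libraries, and 10247 to 10285 against 10144 to 10169 genes were at 1 FPKM or more. The table holds no read counts, so the depth behind a value is unknown. Lyz2, the lysozyme of myeloid cells, had 10380, 9633 and 9934 FPKM with 1 μM cpTLR-i, against 9718, 9891 and 9876 FPKM with LPS alone. No tested marker of neutrophils, lymphocytes, dendritic cells, mast cells, stromal cells or erythroid cells was called in either direction. Only 11 of 17 neutrophil, 5 of 13 dendritic cell and 3 of 13 T, B and NK cell markers were tested. So were 3 of 10 mast cell, basophil and eosinophil, 2 of 11 stromal, and 2 of 10 erythroid and megakaryocyte markers. The others were too low to be tested and could not be called. Summed over 13 dendritic cell markers, levels were 45.6 to 47.5 FPKM in the 1 μM libraries and 40.6 to 42.6 FPKM in the LPS libraries, and over 17 neutrophil markers 95.2 to 99.7 and 101 to 103 FPKM, with 8 and 6 of those markers under 0.5 FPKM in all 6 libraries. Mast cell, basophil and eosinophil markers (7 of 10 under 0.5 FPKM) summed to 2.35 to 2.92 against 1.65 to 2.18 FPKM, and erythroid and megakaryocyte markers (8 of 10 under 0.5 FPKM) to 336 to 349 against 323 to 325 FPKM. That last sum rests on few genes. The 2 members tested had log2 fold changes of −0.02 and 0.08, with 1 higher without the fold minimum. The part of these cells in the results below was not tested. Bulk RNA cannot tell fewer cells of a type from less RNA per cell.

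Between 1 μM cpTLR-i plus LPS and LPS alone, 61 of the 12315 tested genes (0.495%) were called higher and 77 (0.625%) were called lower. A call needed an adjusted p under 0.05 in limma and a change over 1.5-fold. Fosb, an AP-1 subunit, and Klf2, a zinc-finger transcription factor, led the higher genes by name, while inflammatory cytokines, chemokines and interferon-stimulated genes made up much of the lower genes. A change over 2-fold was seen in 10 called genes in each direction. Without the fold minimum, 1803 genes (14.6%) were higher and 537 (4.36%) lower, and the median log2 fold change over all tested genes was 0.06, with 70.7% above 0. With median-ratio scaling of the libraries that median was 0.00, and the calls were 44 higher and 113 lower, or 835 and 920 without the fold minimum. The libraries of the groups did not overlap in 57 of the 61 higher and in 77 of the 77 lower genes, a pattern that 30.2% and 8.31% of all tested genes also showed.

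Called genes in the 2 directions differed in level. Genes called higher had a median level of 1.47 FPKM over the 6 libraries and genes called lower 7.93 FPKM, against 5.71 FPKM for all tested genes. Among the 620 genes over 100 FPKM, 0 were called higher and 13 lower, with 118 higher and 49 lower at an adjusted p under 0.05 without the fold minimum. Among the 3407 genes under 2 FPKM, 35 were called higher and 17 lower.

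**Figure D1:**
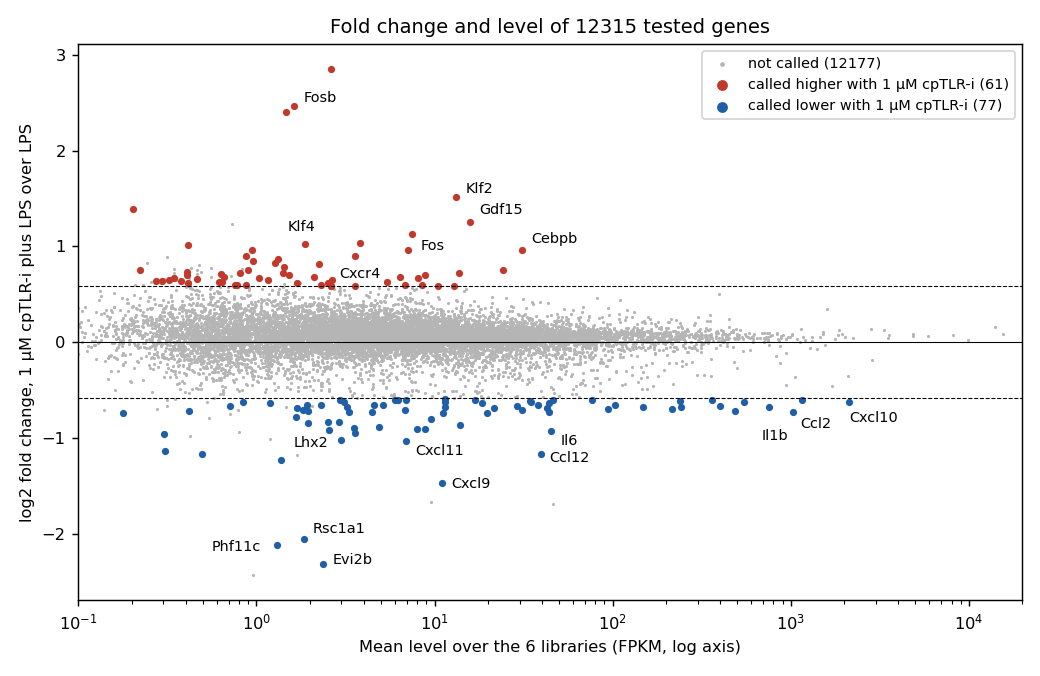
Each point is 1 of 12315 tested genes, placed by its mean level over the 6 libraries (FPKM, log axis) and its log2 fold change of 1 μM cpTLR-i plus LPS over LPS, with dashed lines at a 1.5-fold change. The 61 genes called higher lie mostly at low levels, and the 77 called lower reach up to Cxcl10, at 1671 FPKM with 1 μM cpTLR-i and 2568 FPKM with LPS alone.

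Some immediate early genes were higher with 1 μM cpTLR-i plus LPS than with LPS alone, while most did not pass as called. Of 14 AP-1 subunits tested, 3 were called higher and 0 lower, and 6 were higher and 1 lower without the fold minimum, or 3 and 1 with median-ratio scaling. Their median log2 fold change was 0.16, beside 0.06 over all tested genes. Of all tested genes 0.495% were called higher and 0.625% lower, or 14.6% and 4.36% without the fold minimum. Fosb had 3.398, 2.32 and 3.11 FPKM with 1 μM cpTLR-i, against 0.422, 0.301 and 0.257 FPKM with LPS alone. Every 1 μM library lay far above every LPS library, and its log2 fold change was 2.46 ± 0.21 (± standard error, limma, adjusted p = 2.30e-05). Fos, the founding AP-1 subunit, had 10.5, 8.85 and 11.7 FPKM with 1 μM cpTLR-i, against 4.45, 4.802 and 4.42 FPKM with LPS alone. The groups were again well apart, with a log2 fold change of 1.13 ± 0.09 (adjusted p = 1.36e-05). Fosl1 had 0.395, 0.3099 and 0.322 FPKM with 1 μM cpTLR-i, against 0.0451, 0.174 and 0.09101 FPKM with LPS alone, all below 0.5 FPKM, with a log2 fold change of 0.76 ± 0.14 (adjusted p = 0.00262) that fell to 0.28, no longer called, with a pseudocount of 1 in place of 0.25. In the GENCODE annotation 57.2% of Fosl1 exon bases overlap Ccdc85b on the opposite strand. Junb, the most abundant of the subunits named here, had 199.7, 209 and 225 FPKM with 1 μM cpTLR-i, against 216, 203 and 216 FPKM with LPS alone and a log2 fold change of -0.01 ± 0.05 (adjusted p = 0.961). Jun had 8.24, 7.55 and 9.19 FPKM with 1 μM cpTLR-i, against 6.57, 6.54 and 7.31 FPKM with LPS alone, which passed the adjusted p (0.00942) at a log2 fold change of 0.28 ± 0.06, below 1.5-fold.

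Promoters of the 4 highest and 4 lowest genes by the naming rule were searched for 9 motifs. The 250 bases before the transcription start are shown for Fosb, Klf2, Fos and Cxcl9, those with a match. These were thus picked for holding motifs and do not stand for the others. All are from RefSeq on GRCm38.p6, the assembly of mm10, read 5′ to 3′ on the strand of the gene. Capitals mark matches on either strand to motifs searched by letters, the CRE half-site TGACG, the GC box GGGCGG, the TATA box TATAAA, the ISRE core GAAANNGAA, and the κB site by its name. The windows lie at chr7:19310046-19310295 (minus strand) for Fosb, chr8:72318812-72319061 (plus strand) for Klf2, chr12:85473640-85473889 (plus strand) for Fos and chr5:92328080-92328329 (minus strand) for Cxcl9.
Fosb: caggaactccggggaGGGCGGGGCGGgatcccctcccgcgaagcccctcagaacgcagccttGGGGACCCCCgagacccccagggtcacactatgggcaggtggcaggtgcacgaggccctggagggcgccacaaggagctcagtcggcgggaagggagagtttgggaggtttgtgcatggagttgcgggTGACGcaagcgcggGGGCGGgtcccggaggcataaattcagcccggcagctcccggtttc
Klf2: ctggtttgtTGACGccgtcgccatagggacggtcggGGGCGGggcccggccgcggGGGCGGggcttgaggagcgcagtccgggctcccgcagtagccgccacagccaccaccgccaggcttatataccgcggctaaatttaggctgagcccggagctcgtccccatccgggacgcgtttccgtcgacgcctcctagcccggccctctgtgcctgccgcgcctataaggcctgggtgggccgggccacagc
Fos: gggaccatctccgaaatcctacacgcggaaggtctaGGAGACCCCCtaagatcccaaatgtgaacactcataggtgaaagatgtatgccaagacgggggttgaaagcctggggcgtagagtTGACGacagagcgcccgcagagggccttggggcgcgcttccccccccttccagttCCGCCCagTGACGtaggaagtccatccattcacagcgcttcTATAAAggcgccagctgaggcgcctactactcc
Cxcl9: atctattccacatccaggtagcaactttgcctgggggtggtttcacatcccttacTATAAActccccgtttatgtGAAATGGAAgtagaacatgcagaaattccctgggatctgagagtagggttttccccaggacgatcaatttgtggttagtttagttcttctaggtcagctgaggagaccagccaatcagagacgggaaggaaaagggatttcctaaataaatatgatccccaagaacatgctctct
Fosb held 1 CRE half-site, 1 κB site and 3 GC boxes, Klf2 held 1 CRE half-site and 2 GC boxes, and Fos held 2 CRE half-sites, 1 κB site, 1 GC box and 1 TATA box. Cxcl9 held 1 ISRE core and 1 TATA box. Gdf15, Evi2b, Phf11c and Rsc1a1, the other promoters of the 4 highest and 4 lowest genes by the naming rule, held none of the 9 motifs searched and are not shown.

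Other immediate early genes gave 2 calls higher and 0 lower among 23 tested, beside 0.495% and 0.625% of all tested genes. Without the fold minimum 13 were higher and 1 lower, beside 14.6% and 4.36%, and the median log2 fold change was 0.25. Without LPS replicate 3, or with a pseudocount of 0.1, 4 of the 23 were called higher, and with a pseudocount of 1 only 1 was. Egr2, a zinc-finger factor that acts in macrophage activation, had 10.98, 10.1 and 12.2 FPKM with 1 μM cpTLR-i, against 6.67, 6.63 and 6.804 FPKM with LPS alone. All 1 μM libraries were above all LPS libraries, at a log2 fold change of 0.70 ± 0.07 (adjusted p = 5.84e-05). Nr4a1, an orphan nuclear receptor that restrains inflammatory genes in macrophages, had 1.98, 1.38 and 1.98 FPKM with 1 μM cpTLR-i, against 0.908, 0.906 and 0.7503 FPKM with LPS alone. The groups did not overlap, and the log2 fold change was 0.87 ± 0.16 (adjusted p = 0.0028), or 0.58 and not called with a pseudocount of 1. Nab2, a corepressor of Egr factors, was also called higher but was counted outside these 23. It had 9.13, 9.75 and 10.9 FPKM with 1 μM cpTLR-i, against 6.65, 5.79 and 6.004 FPKM with LPS alone. Its log2 fold change was 0.67 ± 0.06 (adjusted p = 4.97e-05), or 0.58 and not called under quantile normalization. An opposite-strand gene overlaps 35.7% of its exon bases. Ier2 had 9.69, 11.1 and 11.7 FPKM with 1 μM cpTLR-i, against 8.13, 7.94 and 8.56 FPKM with LPS alone, passing the adjusted p (0.00955) but not the fold.

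**Figure D2:**
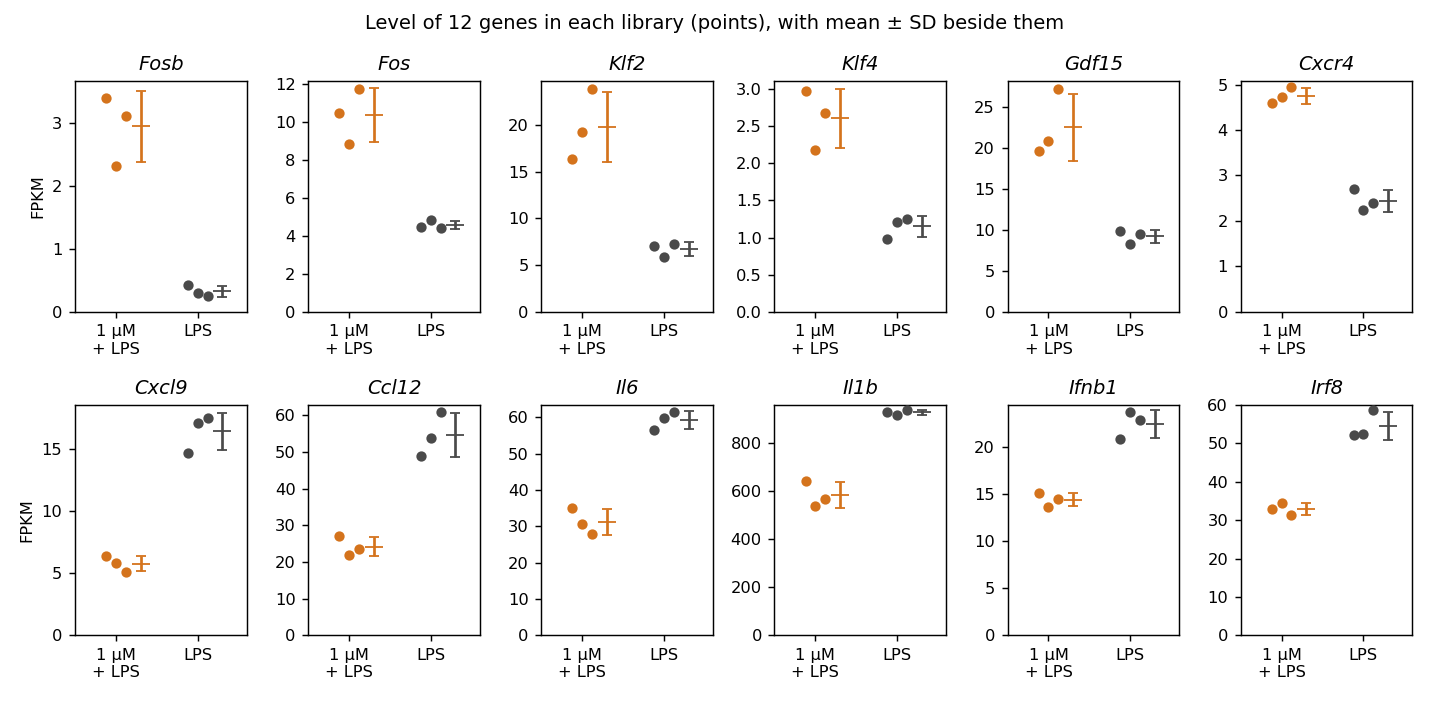
Level in FPKM of 12 genes in each library of 1 μM cpTLR-i plus LPS (left) and LPS (right), with the mean ± SD (n = 3) beside the points. Fosb, Fos, Klf2, Klf4, Gdf15 and Cxcr4 were higher and Cxcl9, Ccl12, Il6, Il1b, Ifnb1 and Irf8 lower in all 3 libraries with 1 μM cpTLR-i than in any LPS library.

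Kruppel-like factors gave 3 calls higher and 0 lower among 11 tested, beside 0.495% and 0.625% of all tested genes. Without the fold minimum 4 were higher and 2 lower. The median log2 fold change was 0.23, with 4 of the 11 negative and the lowest at −0.48. Klf2, which restrains inflammatory activation of myeloid and endothelial cells, had 16.4, 19.3 and 23.8 FPKM with 1 μM cpTLR-i, against 7.02, 5.84 and 7.29 FPKM with LPS alone. The lowest 1 μM library was more than 2 times the highest LPS library, and the log2 fold change was 1.52 ± 0.18 (adjusted p = 1.96e-04). Klf4, a related factor of macrophage polarization, had 2.97, 2.18 and 2.68 FPKM with 1 μM cpTLR-i, against 0.986, 1.21 and 1.25 FPKM with LPS alone. Its groups did not overlap, and the log2 fold change was 1.03 ± 0.11 (adjusted p = 9.13e-05). Klf4 and Egr2 were the 2 called higher of 18 alternative activation markers tested, with 0 lower. Without the fold minimum 5 of the 18 were higher and 1 lower, with 7 negative and a median of 0.10. Mrc1 (0.09) and Chil3 (−0.06), markers that the paper names, were not called. Arg1 was at 0 FPKM in all 6 libraries. Klf10, a TGF-β inducible member, had 6.96, 6.17 and 6.803 FPKM with 1 μM cpTLR-i, against 4.34, 4.14 and 4.14 FPKM with LPS alone, a log2 fold change of 0.63 ± 0.06 (adjusted p = 4.97e-05) that was not called under quantile normalization (0.54), median-ratio scaling (0.57) or a pseudocount of 1 (0.55). Klf6 had 148, 132 and 133 FPKM with 1 μM cpTLR-i, against 138, 147 and 143 FPKM with LPS alone, levels that overlapped between groups.

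C/EBP, BHLHE and HES factors gave 3 calls higher and 0 lower among 8 tested, beside 0.495% and 0.625% of all tested genes. The median log2 fold change of the list was 0.40. Cebpb, the C/EBPβ factor of myeloid gene induction, had 25.04, 39.1 and 62.3 FPKM with 1 μM cpTLR-i, against 21.5, 17.9 and 20.97 FPKM with LPS alone. The 1 μM libraries ranged widely and the lowest of them was only just above the highest LPS library, so the log2 fold change of 0.96 ± 0.25 (adjusted p = 0.0195) was not called without LPS replicate 2 (0.88), 1 μM replicate 2 (0.97) or 1 μM replicate 3 (0.63), nor with no filter on low values. With any 1 of those 3 libraries left out, 1 gene of the list was called higher. The exons of Cebpb overlap Tmem189 on the opposite strand over 20.7% of their bases, and Tmem189 itself had 59.01, 57.8 and 59.02 FPKM with 1 μM cpTLR-i, against 50.6, 51.5 and 52.2 FPKM with LPS alone. Bhlhe40, a helix-loop-helix repressor that limits Il10, had 9.92, 8.64 and 9.86 FPKM with 1 μM cpTLR-i, against 4.78, 5.13 and 4.36 FPKM with LPS alone. These groups were clearly separate, with a log2 fold change of 0.96 ± 0.06 (adjusted p = 8.23e-06), the smallest adjusted p of the comparison, shared with Cxcr4 and Rab7b among the genes named. Its relative Bhlhe41 had 11.6, 13.02 and 13.4 FPKM with 1 μM cpTLR-i, against 8.71, 8.07 and 8.21 FPKM with LPS alone, just inside the fold threshold at 0.59 ± 0.05 (adjusted p = 3.28e-05) and outside it without LPS replicate 2 (0.57), LPS replicate 3 (0.58), 1 μM replicate 2 (0.57) or 1 μM replicate 3 (0.55), and with TPM (0.57), a pseudocount of 1 (0.55), quantile normalization (0.50) or median-ratio scaling (0.53). An opposite-strand gene overlaps 19.0% of its exon bases.

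Secreted factors and receptors also held higher calls. Gdf15, a stress-induced member of the TGF-β superfamily, had 19.6, 20.8 and 27.2 FPKM with 1 μM cpTLR-i, against 9.801, 8.28 and 9.54 FPKM with LPS alone. All 1 μM libraries lay well above all LPS libraries, and the log2 fold change was 1.26 ± 0.12 (adjusted p = 5.84e-05). Hbegf, a ligand of the EGF receptor, had 1.602, 1.23 and 1.599 FPKM with 1 μM cpTLR-i, against 0.783, 0.9798 and 0.791 FPKM with LPS alone, a log2 fold change of 0.65 ± 0.11 (adjusted p = 0.00184). It was not called with a pseudocount of 1 (0.42) or under quantile normalization (0.57). Growth factors gave 2 calls higher and 0 lower among 10 tested, or 1 higher in either of those settings. Of all tested genes 0.495% were called higher and 0.625% lower. Vegfa, which the paper names as raised at 10 μM, was not called at 1 μM (−0.09). Cxcr4, the receptor of CXCL12, had 4.6, 4.72 and 4.94 FPKM with 1 μM cpTLR-i, against 2.697, 2.23 and 2.39 FPKM with LPS alone at a log2 fold change of 0.90 ± 0.06 (adjusted p = 8.23e-06). No library of the groups overlapped, but the levels were low beside those of control and of 10 μM cpTLR-i, given below.

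Id3, an inhibitor of helix-loop-helix factors, had 28.1, 30.9 and 32.04 FPKM with 1 μM cpTLR-i, against 19.4, 17.3 and 17.01 FPKM with LPS alone and a log2 fold change of 0.75 ± 0.08 (adjusted p = 9.13e-05). It was among the most abundant genes called higher. Lhfpl2, a membrane protein of the tetraspan type, had 17.8, 16.3 and 16.96 FPKM with 1 μM cpTLR-i, against 8.09, 11.7 and 11.2 FPKM with LPS alone, at 0.72 ± 0.10 (adjusted p = 5.61e-04), but at 0.56 and not called without LPS replicate 1, the lowest LPS library. Mocs3, an enzyme of molybdenum cofactor synthesis, had 2.33, 2.69 and 2.96 FPKM with 1 μM cpTLR-i, against 1.65, 1.43 and 1.58 FPKM with LPS alone, at 0.69 ± 0.10 (adjusted p = 7.77e-04), or 0.52 and not called with a pseudocount of 1. Dusp4, a phosphatase of MAP kinases, was the 1 member called of 18 dual-specificity phosphatases, with 15.5, 14.6 and 16.4 FPKM with 1 μM cpTLR-i, against 10.3, 10.1 and 10.2 FPKM with LPS alone and a log2 fold change of 0.59 ± 0.06 (adjusted p = 4.97e-05). That call ended without 1 μM replicate 3 (0.55), with TPM (0.57), with a pseudocount of 1 (0.56), under quantile normalization (0.51) and with median-ratio scaling (0.53). The list then held 0 calls in these settings other than TPM, and 2 with a pseudocount of 0.1, without LPS replicate 1 or without 1 μM replicate 2. Dusp1, which acts on p38 and JNK, had 40.4, 36.4 and 45.5 FPKM with 1 μM cpTLR-i, against 50.04, 49.5 and 49.7 FPKM with LPS alone, and Dusp2 had 33.03, 32.1 and 32.8 FPKM with 1 μM cpTLR-i, against 48.8, 45.4 and 46 FPKM with LPS alone, both passing the adjusted p in the lower direction (0.0284 and 4.26e-04) with a change under 1.5-fold.

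Calls among inflammatory cytokines were all in the lower direction. Of 28 tested, 9 were called lower and 0 higher, and 13 were lower and 4 higher without the fold minimum. Over all tested genes 0.625% were called lower and 0.495% higher, or 4.36% and 14.6% without the fold minimum. The median log2 fold change of the cytokines was −0.29. Il6, a central cytokine of acute inflammation, had 35.1, 30.6 and 28.02 FPKM with 1 μM cpTLR-i, against 56.5, 59.97 and 61.4 FPKM with LPS alone. The highest 1 μM library was far below the lowest LPS library, at a log2 fold change of -0.92 ± 0.11 (adjusted p = 2.18e-04). Il1b, the interleukin-1β precursor, had 642, 536 and 567 FPKM with 1 μM cpTLR-i, against 929, 915 and 937 FPKM with LPS alone. No library of either group came near the other, with a log2 fold change of -0.68 ± 0.14 (adjusted p = 0.0066). Il1a had 182, 150.4 and 165 FPKM with 1 μM cpTLR-i, against 261, 271 and 270.2 FPKM with LPS alone, at -0.70 ± 0.10 (adjusted p = 7.64e-04). Il12b encodes the p40 chain shared by IL-12 and IL-23, and had 203, 181 and 177 FPKM with 1 μM cpTLR-i, against 294, 291 and 308 FPKM with LPS alone. Il23a, the p19 chain of IL-23, had 2.11, 1.56 and 1.58 FPKM with 1 μM cpTLR-i, against 3.88, 3.01 and 3.01 FPKM with LPS alone. Both chains were lower in every 1 μM library, at -0.67 ± 0.10 (adjusted p = 8.67e-04) and -0.83 ± 0.15 (adjusted p = 0.00267). Il27, an IL-12 family chain, had 118, 116 and 106 FPKM with 1 μM cpTLR-i, against 182, 178 and 185 FPKM with LPS alone, at -0.68 ± 0.11 (adjusted p = 0.00176).

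Not all cytokines were called. Tnf, the most abundant of those named here with LPS, had 853, 768 and 815 FPKM with 1 μM cpTLR-i, against 931, 941 and 946 FPKM with LPS alone. The groups did not overlap, yet the log2 fold change was -0.21 ± 0.08 and the adjusted p 0.0733. Il10, an anti-inflammatory cytokine, had 10.2, 8.34 and 9.64 FPKM with 1 μM cpTLR-i, against 8.32, 9.18 and 7.66 FPKM with LPS alone, which overlapped (log2 fold change 0.16 ± 0.13, adjusted p = 0.414). Csf2, encoding GM-CSF, had 3.65, 3.19 and 3.96 FPKM with 1 μM cpTLR-i, against 2.87, 3.27 and 1.94 FPKM with LPS alone, at 0.41 ± 0.15 (adjusted p = 0.0792). Osm, an IL-6 family member, had 3.13, 2.48 and 2.98 FPKM with 1 μM cpTLR-i, against 2.14, 2.02 and 2.26 FPKM with LPS alone, which passed the adjusted p (0.00842) in the higher direction at 0.38 ± 0.08, under 1.5-fold. Il18 had 8.85, 8.77 and 8.34 FPKM with 1 μM cpTLR-i, against 9.596, 10.3 and 10.9 FPKM with LPS alone, in the lower direction at -0.24 ± 0.07 (adjusted p = 0.0247), also under 1.5-fold.

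Chemokines gave 7 calls lower and 0 higher among 23 tested, beside 0.625% and 0.495% of all tested genes. Without the fold minimum 11 were lower and 2 higher, beside 4.36% and 14.6%, with a median log2 fold change of −0.27. The CXCR3 ligands Cxcl9, Cxcl10 and Cxcl11 lie side by side on chromosome 5, and all 3 were called lower. Cxcl9 had 6.36, 5.84 and 5.12 FPKM with 1 μM cpTLR-i, against 14.7, 17.02 and 17.4 FPKM with LPS alone. The LPS libraries were all more than 2 times the 1 μM libraries, at a log2 fold change of -1.47 ± 0.11 (adjusted p = 1.15e-05). Cxcl10 had 1708, 1665 and 1640 FPKM with 1 μM cpTLR-i, against 2483, 2562 and 2657 FPKM with LPS alone, at -0.62 ± 0.08 (adjusted p = 3.99e-04), and was not called under quantile normalization (−0.55). Cxcl11 had 4.79, 4.68 and 3.96 FPKM with 1 μM cpTLR-i, against 9.12, 9.31 and 9.62 FPKM with LPS alone, at -1.03 ± 0.10 (adjusted p = 5.84e-05). An opposite-strand gene overlaps 41.7% of its exon bases, and RefSeq lists the mouse gene as a transcribed pseudogene.

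The monocyte-attracting CC chemokines Ccl2, Ccl7, Ccl12 and Ccl8 lie in 1 cluster on chromosome 11 and were all called lower. They were 4 of the 4 genes tested there, beside 0.625% called lower over all tested genes. The cluster was bounded by its called genes, so a high share was built in. These 4 genes are close paralogs, so reads may be split between them with error. Ccl12 had 26.97, 21.97 and 23.4 FPKM with 1 μM cpTLR-i, against 48.98, 53.9 and 60.9 FPKM with LPS alone, at -1.17 ± 0.09 (adjusted p = 1.36e-05). Ccl2, the most abundant of them, had 824, 719 and 803 FPKM with 1 μM cpTLR-i, against 1276, 1289 and 1301 FPKM with LPS alone. No LPS library came near a 1 μM library, at -0.72 ± 0.07 (adjusted p = 5.84e-05). Ccl8 had 3.88, 3.09 and 3.12 FPKM with 1 μM cpTLR-i, against 6.14, 6.104 and 6.97 FPKM with LPS alone, at -0.89 ± 0.13 (adjusted p = 6.05e-04). Ccl5, an attractant of T cells and monocytes, had 882, 937 and 969 FPKM with 1 μM cpTLR-i, against 1179, 1152 and 1256 FPKM with LPS alone, passing the adjusted p (0.0312) at -0.36 ± 0.11, under 1.5-fold.

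**Figure D3:**
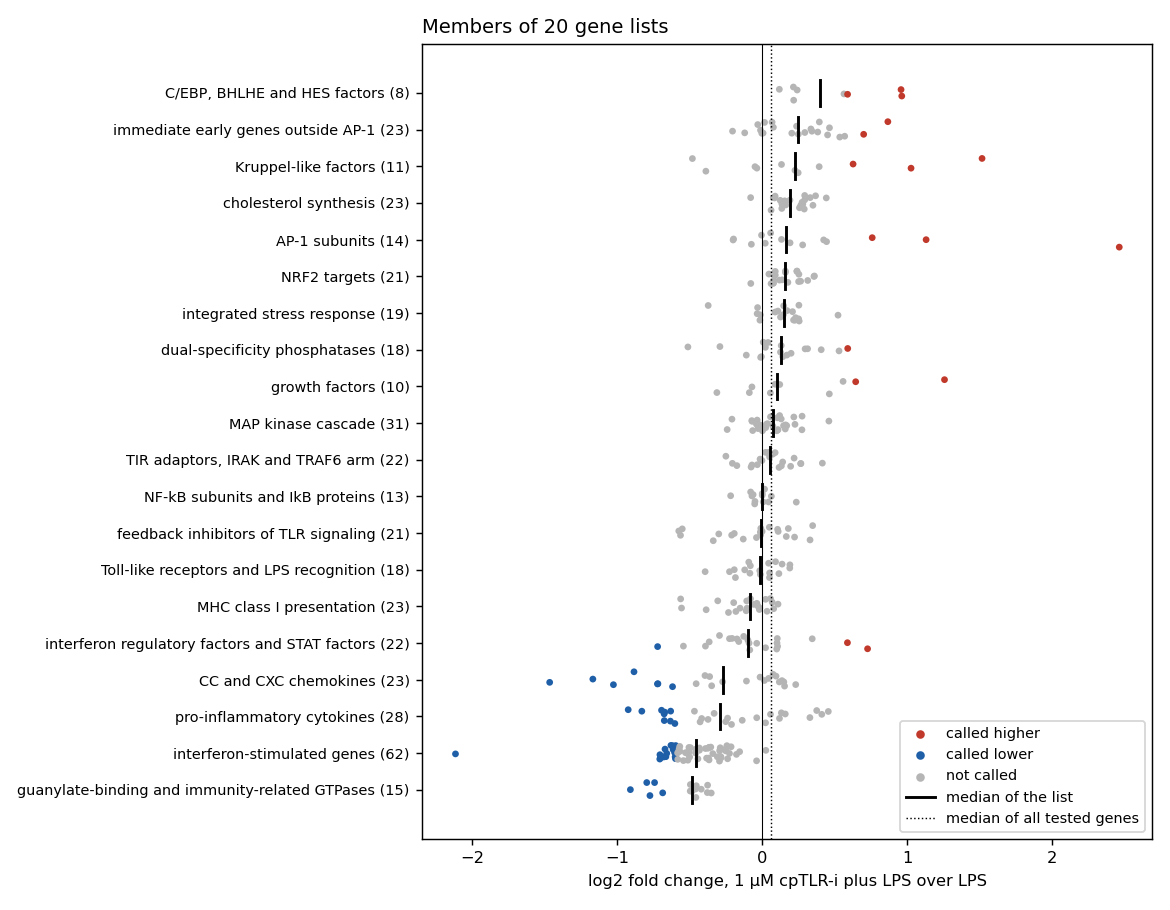
Log2 fold change of 1 μM cpTLR-i plus LPS over LPS for each tested member of 20 gene lists (number tested in parentheses), with the list median (bar) and the median of all tested genes (dotted line). The 62 interferon-stimulated genes have a median of −0.46 and the 15 guanylate-binding and immunity-related GTPases −0.49, the lowest medians drawn.

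Interferon genes were lower as a group. Ifnb1, which encodes IFN-β, had 15.1, 13.7 and 14.4 FPKM with 1 μM cpTLR-i, against 20.8, 23.8 and 22.9 FPKM with LPS alone. The lowest LPS library was well above the highest 1 μM library, and the log2 fold change was -0.63 ± 0.11 (adjusted p = 0.00175). Of 62 interferon-stimulated genes tested, 15 were called lower and 0 higher, and 56 were lower and 0 higher without the fold minimum, beside 4.36% lower over all tested genes. Their log2 fold changes were negative in 61 of 62 genes, with a median of −0.46. Many of these changes lay near 1.5-fold, and the count of calls was 26 without LPS replicate 1, 23 without 1 μM replicate 2, 23 with median-ratio scaling and 9 without LPS replicate 3. LPS replicate 1 had the lowest level of the list among the LPS libraries, at −0.09 (mean log2 value relative to the LPS mean) against 0.04 and 0.05, and the 1 μM libraries stood at −0.45, −0.41 and −0.54.

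Rsad2, which encodes the antiviral enzyme viperin, had 975, 925 and 878 FPKM with 1 μM cpTLR-i, against 1311, 1428 and 1463 FPKM with LPS alone. Its groups did not overlap, at -0.60 ± 0.10 (adjusted p = 0.00162), with the call lost without LPS replicate 2 (−0.58), LPS replicate 3 (−0.57) or 1 μM replicate 3 (−0.56). Ifit1, which binds foreign RNA, had 458, 421 and 409.7 FPKM with 1 μM cpTLR-i, against 630.1, 667 and 680.2 FPKM with LPS alone, at -0.62 ± 0.11 (adjusted p = 0.00237), or −0.57 and not called under quantile normalization. Ifit2 had 316, 291 and 260.5 FPKM with 1 μM cpTLR-i, against 399, 462 and 452 FPKM with LPS alone, at -0.60 ± 0.13 (adjusted p = 0.00742), and was not called without LPS replicate 2 (−0.56), LPS replicate 3 (−0.58) or 1 μM replicate 3 (−0.53). Ifit3b had 36.5, 36.2 and 30.4 FPKM with 1 μM cpTLR-i, against 46.9, 56.1 and 56.98 FPKM with LPS alone, at -0.63 ± 0.13 (adjusted p = 0.00583), not called without LPS replicate 3 (−0.58) or 1 μM replicate 3 (−0.54). The 6 Ifit genes tested are paralogs. Of them 3 were called lower and 6 were lower without the fold minimum, beside 0.625% and 4.36% of all tested genes. The count of calls was 1 without LPS replicate 3 or 1 μM replicate 3, and 5 without LPS replicate 1 or with TPM. It was 6 without 1 μM replicate 2 or with median-ratio scaling. Oasl1, an oligoadenylate synthetase-like regulator, had 79.2, 80.4 and 78.7 FPKM with 1 μM cpTLR-i, against 121, 125 and 130.4 FPKM with LPS alone, at -0.66 ± 0.07 (adjusted p = 1.12e-04). Isg15, a ubiquitin-like modifier, had 290.3, 282 and 286 FPKM with 1 μM cpTLR-i, against 357, 366 and 364 FPKM with LPS alone. Every 1 μM library was below every LPS library, but the change of -0.34 ± 0.07 (adjusted p = 0.00696) stayed under 1.5-fold.

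Guanylate-binding and immunity-related GTPases act against intracellular pathogens. They gave 5 calls lower and 0 higher among 15 tested, beside 0.625% and 0.495% of all tested genes. All 15 were lower without the fold minimum, beside 4.36%, with a median log2 fold change of −0.49. Iigp1 had 6.77, 6.41 and 4.99 FPKM with 1 μM cpTLR-i, against 9.79, 12.1 and 12.9 FPKM with LPS alone, at -0.91 ± 0.14 (adjusted p = 9.25e-04). Gbp9 had 6.79, 7.48 and 6.39 FPKM with 1 μM cpTLR-i, against 10.97, 12.7 and 12.8 FPKM with LPS alone, at -0.80 ± 0.10 (adjusted p = 2.10e-04). The groups were clearly apart in both genes. The near-identical Tgtp1 and Tgtp2, in 1 cluster on chromosome 11, were lower at -0.74 ± 0.12 and -0.69 ± 0.13 (adjusted p = 0.00103 and 0.003). Gbp2, more abundant than these, had 127, 126 and 120.3 FPKM with 1 μM cpTLR-i, against 151, 164 and 171 FPKM with LPS alone. Gbp2 and Gbp5 were not called, at -0.38 ± 0.10 and -0.35 ± 0.09 (adjusted p = 0.0177 and 0.0191).

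**Figure D4:**
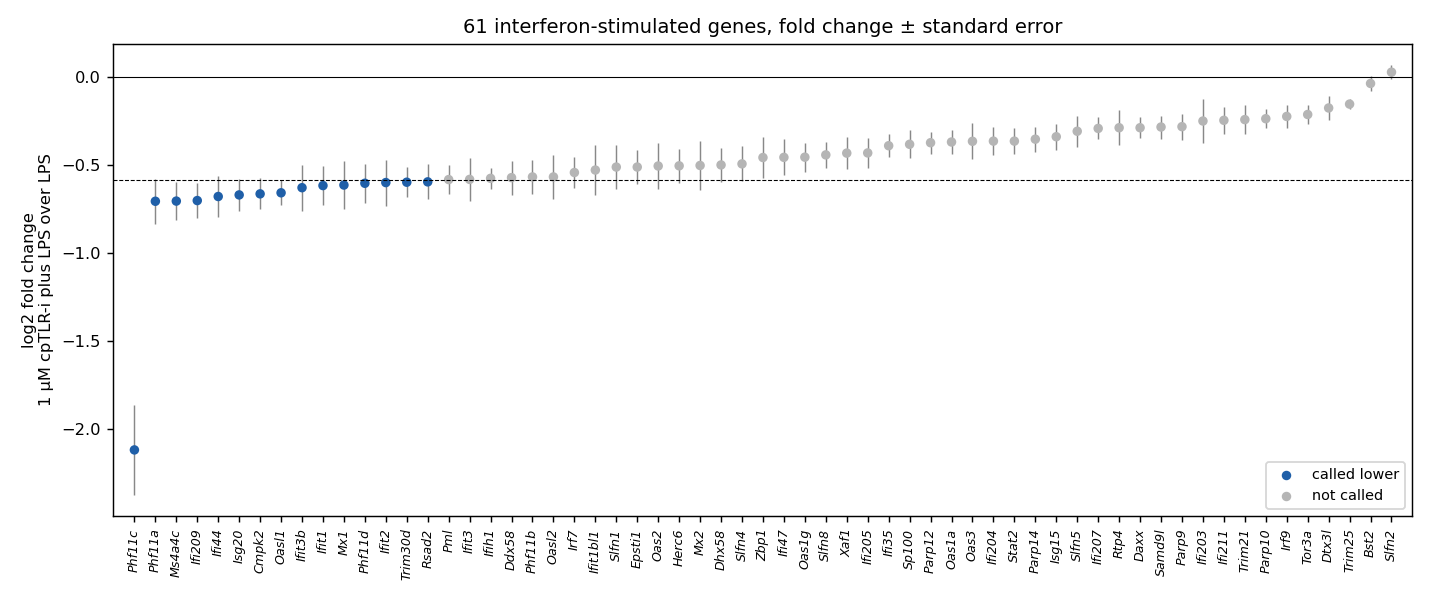
Log2 fold change (± standard error) of 1 μM cpTLR-i plus LPS over LPS for 61 of the 62 interferon-stimulated genes tested, ordered by the change, with a dashed line at 1.5-fold lower. The 15 called lower run from Phf11c to Rsad2, and only Slfn2, at 0.03, has a positive value.

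Interferon-inducible families with many close copies held several lower genes, and reads may be split unevenly between copies. Of 11 Ifi200 family genes tested, 5 were called lower and 1 higher, beside 0.625% and 0.495% of all tested genes. In the Ifi200 cluster on chromosome 1, 6 of 8 tested genes were called lower. That cluster was bounded by its called genes, so a high share was built in. Among the lower genes were Ifi214 (1.48, 1.78 and 1.78 FPKM with 1 μM cpTLR-i, against 3.28, 2.89 and 4.05 FPKM with LPS alone, log2 fold change -0.91 ± 0.12, adjusted p = 4.42e-04) and Ifi206 (-0.90 ± 0.15, adjusted p = 0.00161). Ifi202b, of the same family, went the other way, with 1.23, 1.22 and 1.16 FPKM with 1 μM cpTLR-i, against 0.466, 0.672 and 0.469 FPKM with LPS alone, at 0.90 ± 0.13 (adjusted p = 7.36e-04). With a pseudocount of 1 it was at 0.52 and not called. In the Phf11 family 3 of 4 tested genes were called lower, beside 0.625% of all tested genes. Without the fold minimum 4 of 4 were lower, beside 4.36%. Phf11c had 0.183, 0.243 and 0.569 FPKM with 1 μM cpTLR-i, against 2.68, 2.77 and 1.37 FPKM with LPS alone, at -2.12 ± 0.25 (adjusted p = 2.10e-04), while Phf11a was at -0.71 ± 0.13 and Phf11d at -0.60 ± 0.11, the last not called without LPS replicate 3 (−0.57) or 1 μM replicate 1 (−0.54). With a pseudocount of 1, Phf11a (−0.51) and Phf11d (−0.54) were not called, which left 1 call in the family. Trim30c had 15.1, 15.1 and 14.2 FPKM with 1 μM cpTLR-i, against 22.9, 25.3 and 26.3 FPKM with LPS alone, at -0.73 ± 0.11 (adjusted p = 6.76e-04).

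Among interferon regulatory factors and STAT factors, 1 of 22 tested genes was called lower, beside 0.625% of all tested genes. The 2 called higher, beside 0.495%, were the corepressors Irf2bp1 and Irf2bp2. Without the fold minimum 9 were lower and 3 higher, and the log2 fold change was negative in 14 of 22, with a median of −0.095. Irf8, a factor of the myeloid lineage, had 32.8, 34.5 and 31.3 FPKM with 1 μM cpTLR-i, against 52.3, 52.4 and 58.6 FPKM with LPS alone. All 1 μM libraries lay far below the LPS libraries, at a log2 fold change of -0.72 ± 0.09 (adjusted p = 2.11e-04), and it was also at 51.3, 51.4 and 51.2 FPKM in control. Lhx2, a LIM-homeobox factor, was also called lower but was counted outside these 22. It had 1.61, 2.07 and 1.95 FPKM with 1 μM cpTLR-i, against 3.71, 3.96 and 4.49 FPKM with LPS alone, at -1.02 ± 0.14 (adjusted p = 5.67e-04). The corepressors of IRF2 stood higher, Irf2bp2 with 0.855, 1.07 and 1.29 FPKM with 1 μM cpTLR-i, against 0.523, 0.537 and 0.566 FPKM with LPS alone (0.73 ± 0.09, adjusted p = 3.46e-04), or 0.42 and not called with a pseudocount of 1. Irf2bp1 was just inside the fold at 0.59 ± 0.07 (adjusted p = 2.10e-04), and outside it without LPS replicate 2 (0.57) or 1 μM replicate 3 (0.55), and with a pseudocount of 1 (0.49), quantile normalization (0.495), median-ratio scaling (0.53) and TPM. The higher calls of the list then numbered 0 with a pseudocount of 1 and 1 in each of the others. The lower calls were 2 with median-ratio scaling, without LPS replicate 1 or without 1 μM replicate 2. Irf1 had 451, 416 and 462 FPKM with 1 μM cpTLR-i, against 514, 521 and 499 FPKM with LPS alone, passing the adjusted p (0.0096) below 1.5-fold.

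The receptor arm held no calls. Of 18 Toll-like receptors and LPS recognition genes, 22 TIR adaptor, IRAK and TRAF6 genes, and 13 NF-κB subunits and IκB proteins tested, 0 were called in limma, beside 0.495% called higher and 0.625% called lower over all tested genes, so these counts do not set the lists apart. Without the fold minimum the receptors had 0 higher and 2 lower, the adaptors 5 higher and 3 lower and the NF-κB genes 1 higher and 0 lower, and at an unadjusted p under 0.05 these counts were 1 and 4, 7 and 3, and 1 and 0. Tlr4 had 5.07, 4.5 and 4.497 FPKM with 1 μM cpTLR-i, against 5.26, 5.61 and 5.31 FPKM with LPS alone, at -0.19 ± 0.08 (adjusted p = 0.122). Cd14 had 638, 610.3 and 612 FPKM with 1 μM cpTLR-i, against 598, 591 and 606 FPKM with LPS alone, at 0.05 ± 0.03 (adjusted p = 0.331). Tirap, whose motif the peptide carries, had 6.796, 6.31 and 6.46 FPKM with 1 μM cpTLR-i, against 5.76, 5.93 and 5.99 FPKM with LPS alone, at 0.14 ± 0.05 (adjusted p = 0.0885). A p above the threshold does not show that levels were equal. Myd88 had 61.1, 62.4 and 59.8 FPKM with 1 μM cpTLR-i, against 70.1, 68.9 and 72.5 FPKM with LPS alone, which passed the adjusted p (0.00479) at -0.21 ± 0.04. Rela, the p65 subunit of NF-κB, had 80.7, 83.4 and 83.1 FPKM with 1 μM cpTLR-i, against 81.8, 81.3 and 82.8 FPKM with LPS alone, and Nfkbia, its inhibitor IκBα, had 582, 563 and 588 FPKM with 1 μM cpTLR-i, against 613, 592 and 628 FPKM with LPS alone, at 0.01 ± 0.03 and -0.08 ± 0.06. Tnfaip3, the feedback inhibitor A20, had 272, 257 and 263 FPKM with 1 μM cpTLR-i, against 326, 335 and 339.8 FPKM with LPS alone, passing at -0.34 ± 0.05 (adjusted p = 7.89e-04). It belongs to 21 feedback inhibitors of which 0 were called, 4 higher and 5 lower without the fold minimum. Of those 21, 3 were called lower with median-ratio scaling or TPM, 1 under quantile normalization, 2 without LPS replicate 1, 1 μM replicate 1 or 1 μM replicate 2, and 1 without 1 μM replicate 3.

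Lists of cholesterol synthesis, NRF2, heat shock, unfolded protein response and integrated stress response genes had 0 members called in each. Of 19 p53 targets tested, 1 was called higher, Gdf15, and 0 lower, with 6 higher and 2 lower without the fold minimum. List counts without the fold minimum stand beside 14.6% higher and 4.36% lower over all tested genes. Those with median-ratio scaling stand beside 835 higher and 920 lower of all 12315 tested genes. In 23 cholesterol synthesis genes, 15 were higher and 0 lower without the fold minimum, with a median of 0.19, and Sqle, squalene epoxidase, had 32.04, 30.4 and 30.8 FPKM with 1 μM cpTLR-i, against 24.5, 23.5 and 23.99 FPKM with LPS alone (0.37 ± 0.04, adjusted p = 1.14e-04). With median-ratio scaling the count was 11 higher and 1 lower. In 21 NRF2 targets, 13 were higher and 0 lower, a median of 0.16, and 7 higher and 1 lower with that scaling. Hmox1, heme oxygenase 1, had 179.9, 172 and 174 FPKM with 1 μM cpTLR-i, against 148, 149 and 148 FPKM with LPS alone (0.24 ± 0.03, adjusted p = 2.54e-04), and Srxn1, sulfiredoxin, had 110.3, 103 and 105 FPKM with 1 μM cpTLR-i, against 82.6, 82.7 and 83.01 FPKM with LPS alone (0.36 ± 0.04, adjusted p = 1.05e-04). The heat shock list had 4 of 18 higher and 0 lower, and the unfolded protein response 3 of 20 and 0, with medians of 0.06 and 0.07 beside 0.06 over all tested genes. With median-ratio scaling those counts were 1 and 1 for heat shock genes and 2 and 0 for the unfolded protein response. Hspa5 (-0.02 ± 0.03, adjusted p = 0.768) and Ddit3 (0.15 ± 0.06, adjusted p = 0.11) did not pass. Of 19 integrated stress response genes, 7 were higher and 1 lower, a median of 0.15, or 4 and 1 with median-ratio scaling. Atf4, of the integrated stress response, had 51.2, 48.5 and 51.8 FPKM with 1 μM cpTLR-i, against 43.6, 42.8 and 42.99 FPKM with LPS alone (0.23 ± 0.03, adjusted p = 9.31e-04).

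Named for their small adjusted p at a change under 1.5-fold, Rab7b, a Rab GTPase of late endosomes, had 17.8, 16.8 and 17.3 FPKM with 1 μM cpTLR-i, against 11.8, 12.1 and 11.7 FPKM with LPS alone (0.54 ± 0.04, adjusted p = 8.23e-06). Hvcn1, a voltage-gated proton channel, had 135, 134 and 135 FPKM with 1 μM cpTLR-i, against 108, 105 and 109 FPKM with LPS alone (0.33 ± 0.03, adjusted p = 1.38e-05). In the lower direction, Nectin2, an adhesion molecule, had 14.8, 13.9 and 15.2 FPKM with 1 μM cpTLR-i, against 22.1, 21.2 and 21.7 FPKM with LPS alone (-0.56 ± 0.04, adjusted p = 1.38e-05), and was called without 1 μM replicate 3 (−0.59). Plaur, the urokinase receptor, had 97.01, 91.7 and 96.9 FPKM with 1 μM cpTLR-i, against 127, 129 and 134 FPKM with LPS alone (-0.45 ± 0.04, adjusted p = 3.02e-05). The called genes nearest the fold threshold were Nfxl1 and Rsad2 in the lower direction, with Pml and Ifit3 just outside it at -0.58 ± 0.08 and -0.58 ± 0.12, and in the higher direction Irf2bp1 and Bhlhe41, with Nckap5l and 1810021B22Rik just outside it at 0.58 ± 0.06 and 0.58 ± 0.19. Nfxl1 lost its call without LPS replicate 3 (−0.54) or 1 μM replicate 1 (−0.57), or with a pseudocount of 1 (−0.56). Pml was called without LPS replicate 1 (−0.63), LPS replicate 2 (−0.59) or 1 μM replicate 2 (−0.68), and Ifit3 without LPS replicate 1 (−0.67), 1 μM replicate 1 (−0.60) or 1 μM replicate 2 (−0.63). Nckap5l was called without LPS replicate 3 (0.59) and 1810021B22Rik without LPS replicate 1 (0.79). TPM and median-ratio scaling called Pml (−0.62 and −0.65), Ifit3 (−0.61 and −0.65) and Nectin2 (−0.59 and −0.625), quantile normalization called Pml and Ifit3 (both −0.59), TPM called Nckap5l (0.61), and a pseudocount of 0.1 called Pml (−0.59), Nckap5l (0.64) and 1810021B22Rik (0.73).

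Some of the largest changes rest on gene models that overlap others. Evi2b, a transmembrane protein of blood cells, had 0.417, 0.7804 and 0.6501 FPKM with 1 μM cpTLR-i, against 3.31, 3.36 and 5.71 FPKM with LPS alone, at -2.32 ± 0.20 (adjusted p = 2.99e-05). Its exons overlap the Evi2 readthrough on the same strand over 98.5% of their bases, and Evi2 had 26.9, 24.8 and 24.3 FPKM with 1 μM cpTLR-i, against 26.3, 28.8 and 25.4 FPKM with LPS alone. Rsc1a1 lies wholly within the exons of Ddi2 and had 0.0938, 0.191 and 2.36 FPKM with 1 μM cpTLR-i, against 2.56, 3.12 and 2.703 FPKM with LPS alone. The level in 1 μM replicate 3 was close to the LPS libraries, and the call of Rsc1a1 at -2.05 ± 0.58 (adjusted p = 0.0282) was lost without LPS replicate 1 (−2.10), LPS replicate 2 (−1.97), LPS replicate 3 (−2.07), 1 μM replicate 1 (−1.50) or 1 μM replicate 2 (−1.68), and with no filter, a fit of the 2 groups alone or the replicate block. Ddi2 had 7.96, 7.56 and 6.25 FPKM with 1 μM cpTLR-i, against 5.04, 5.12 and 5.51 FPKM with LPS alone. Snord69 lies within Gnl3 and Snord22 within Snhg1, and both small nucleolar RNAs were called higher, at 1.01 ± 0.27 and 0.75 ± 0.23, but lost the call with libraries left out. Snord69 was not called without LPS replicate 2 (0.66) or 1 μM replicate 2 (0.92), and Snord22 without LPS replicates 1, 2 and 3 in turn (0.82, 0.61 and 0.82), 1 μM replicate 2 (0.78) or 1 μM replicate 3 (0.57). With a pseudocount of 1 (0.44 and 0.45) or no filter, Snord69 and Snord22 both lost the call, and Snord22 also under quantile normalization (0.71), median-ratio scaling (0.72) or no trend. Gm20056, a predicted gene, had the largest log2 fold change among the genes called higher (2.85), and was listed at 3.78, 3.898 and 4.72 FPKM with 1 μM cpTLR-i, against 0, 3.31 and 0 FPKM with LPS alone.

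**Figure D5:**
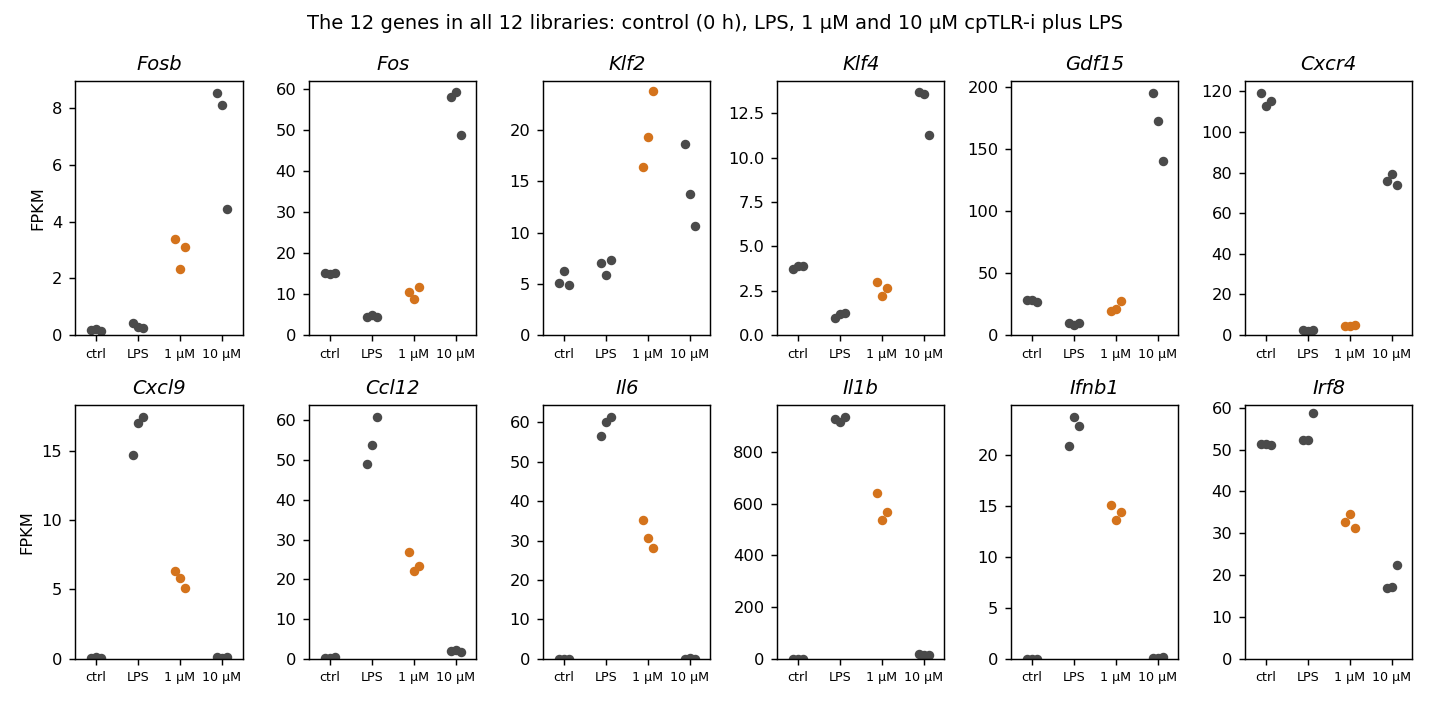
The same 12 genes in all 12 libraries, in the order control, LPS, 1 μM and 10 μM cpTLR-i plus LPS, with the level in FPKM and the 1 μM libraries in orange. Klf2 was at 16.4 to 23.8 FPKM with 1 μM and 10.7 to 18.7 FPKM with 10 μM cpTLR-i, ranges that overlap.

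Levels in the other groups are set beside these as values only, since the comparisons of control, 1 μM and 10 μM share the LPS libraries. Fosb was at 0.172, 0.218 and 0.145 FPKM in control, 0.422, 0.301 and 0.257 after LPS, 3.398, 2.32 and 3.11 at 1 μM and 8.53, 8.09 and 4.44 at 10 μM cpTLR-i plus LPS. Fos was at 15.1, 15.02 and 15.2 FPKM in control, 4.45, 4.802 and 4.42 after LPS, 10.5, 8.85 and 11.7 at 1 μM and 58.1, 59.2 and 48.9 at 10 μM. Cxcr4 was at 119, 113 and 115 FPKM in control, 2.697, 2.23 and 2.39 after LPS, 4.6, 4.72 and 4.94 at 1 μM and 75.7, 79.3 and 74.02 at 10 μM. With 1 μM, Fosb stood above control, Fos below it and Cxcr4 far below it. With 10 μM, Fosb and Fos were at their highest, while Cxcr4 remained below control. Cxcl9 was at 0.0319, 0.0988 and 0.0507 FPKM in control, 14.7, 17.02 and 17.4 after LPS, 6.36, 5.84 and 5.12 at 1 μM and 0.106, 0.0758 and 0.146 at 10 μM. Il6 was at 0, 0 and 0 FPKM in control, 56.5, 59.97 and 61.4 after LPS, 35.1, 30.6 and 28.02 at 1 μM and 0.0742, 0.103 and 0 at 10 μM. With 1 μM both stood between LPS and the low values of 10 μM.

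Promoter motifs are given as shares with no test, since paralogs share sequence. A RefSeq promoter was found for 47 of the 61 genes called higher, 54 of the 77 called lower and 9204 of the 12315 tested. The ISRE core, bound by interferon-activated factors, was in 8.51% of the higher, 37.0% of the lower and 6.53% of all those promoters. The TATA box was in 4.26%, 31.5% and 6.44%, and the GC box in 74.5%, 16.7% and 59.0%. The κB site was in 6.38% of the higher, 14.8% of the lower and 4.28% of all, and the CRE half-site in 27.7%, 11.1% and 28.2%. Stretches around an ISRE core or κB site of named lower genes are shown on GRCm38.p6 with the match in capitals, for Cxcl10 (chr5:92349084-92349112 and chr5:92349029-92349058, minus strand), Ifit1 (chr19:34640770-34640798, plus strand), Il6 (chr5:30013060-30013089, plus strand) and Ifnb1 (chr4:88522891-88522920, minus strand).
Cxcl10: tcacgctttgGAAAGTGAAacttacctca
Cxcl10: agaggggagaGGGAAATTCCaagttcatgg
Ifit1: aactgcaggcTTCAGTTTCactttccagt
Il6: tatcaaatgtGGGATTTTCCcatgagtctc
Ifnb1: aactgaaagtGGGAAATTCCtctgaggcag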

How the data were processed

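RNA-seq was analysed for BMDMs with 1 μM cpTLR-i plus LPS and with LPS alone. The authors mapped reads to mm10 with HISAT2, ran StringTie for quantification, and deposited 1 table with an FPKM and a TPM value for each gene and library. Library kits are named TruSeq Standard and TruSeq Stranded in different sources, and use of strand is not stated, so overlapping and antisense genes are uncertain. Values were taken as log2(FPKM + 0.25), and genes that reached 0.5 FPKM in 3 or more of 12 libraries were tested with limma 3.58.1 in R 4.3.3 (all 12 libraries in 1 fit, eBayes with trend, two-sided contrast, Benjamini-Hochberg adjustment over all genes tested). A fold change on this scale understates that of low genes. Genes were called at an adjusted p under 0.05 and over 1.5-fold. The fit was tested on simulated data. DESeq2, which the authors used, could not be run without counts. Gene lists and members were chosen with earlier results of these data known, families of paralogs and overlapping genes after values were seen. Named genes were the 12 highest and 12 lowest called genes whose mean reached 2 FPKM in a group, with no overlap and no predicted symbol, called and core list members, genes the study names, the 4 most abundant called genes and the 6 smallest adjusted p under 1.5-fold in each direction, and the 2 nearest the threshold on each side. 1 interferon-stimulated gene is not reported here by name. Figures were drawn with matplotlib 3.10.9 in Python 3.11.15. Other settings tried were a pseudocount of 0.1 or 1, TPM, a filter at 1 FPKM or none, quantile and median-ratio scaling, no trend, a fit of the 2 groups alone, the replicate number as a block, leaving out each library, dropping the p adjustment and dropping the fold minimum.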

Additional observations from a re-analysis of the deposited data

How the results depend on the processing

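Counts of higher and lower calls were 61 and 77, and 0 of these genes were called the other way in any setting that was run. A pseudocount of 1 gave 17 higher genes and quantile normalization 37, and with no fold minimum there were 1803 higher and 537 lower genes. With 1 library left out there were 47 to 75 higher and 57 to 106 lower calls, of which 30 of the 61 and 50 of the 77 held in all 6. Under every alternative that was run, 10 and 40 held. Same-numbered libraries did not vary together (correlations −0.07, −0.04 and −0.06), and with the replicate block 62 genes were higher and 74 lower. TPM gave 74 and 106. Of the fold changes of named genes under the alternatives, 2746 kept their side of the threshold, 100 lost and 28 gained the threshold. Of those called in either fit, 0 reversed. Among the 2746, genes called in neither fit could change sign. Junb did so with 1 library left out (−0.051 to 0.035, beside −0.005 with all libraries). The absence of counts means that the precision of a low FPKM is unknown. The cause of these changes was not tested.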

Other observations

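Counts in further gene groups are given beside those of all tested genes, of which 14.6% were higher and 4.36% lower without the fold minimum. The median log2 fold change of all tested genes was 0.06. With median-ratio scaling 835 of the 12315 were higher and 920 lower without the fold minimum. The lists of zinc-finger and ribosomal genes were chosen after their values were seen. Of 293 tested genes with a Zfp symbol, most of them zinc-finger transcription factors, 0 were called, 51 were higher and 1 lower without the fold minimum, and the median log2 fold change was 0.14. With median-ratio scaling those counts without the fold minimum were 29 and 4, and 2 were called higher with TPM, with a pseudocount of 0.1 or without LPS replicate 2. Of 36 cell cycle genes, 13 were higher and 1 lower without the fold minimum, or 4 and 2 with median-ratio scaling, with 0 called, or 1 lower with that scaling, with TPM, under quantile normalization, without LPS replicate 1 or without 1 μM replicate 1. Mki67, a proliferation marker, had 42.8, 40.96 and 43.01 FPKM with 1 μM cpTLR-i, against 35.04, 38.7 and 35.9 FPKM with LPS alone (0.21 ± 0.05, adjusted p = 0.0154). Of 34 lysosome genes, 11 were higher and 0 lower, or 3 and 1 with median-ratio scaling. Of 23 genes of MHC class I presentation, 0 were higher and 7 lower, or 0 and 11 with that scaling, and 0 were called, against 2 lower with TPM, with median-ratio scaling, without LPS replicate 1 or without 1 μM replicate 2, and 1 under quantile normalization. Among them Tap1, a peptide transporter, had 42.6, 46.99 and 44.1 FPKM with 1 μM cpTLR-i, against 55.98, 58.1 and 61.02 FPKM with LPS alone (-0.39 ± 0.05, adjusted p = 3.71e-04), while B2m, the light chain, had 1596, 1560 and 1449 FPKM with 1 μM cpTLR-i, against 1492, 1617 and 1592 FPKM with LPS alone (-0.03 ± 0.05, adjusted p = 0.714). Cytosolic ribosomal proteins had a median log2 fold change of 0.05 over 87 genes and −0.01 with median-ratio scaling.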
